A study of Homo sapiens with 6 samples.

Results

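The genes described here are 9 genes of deoxynucleotide supply and of the DNA replication fork: RRM1, RRM2, TYMS, TK1, DUT, PCNA, FEN1, UNG and RFC4. They were taken as a list by name and not by their values, though with earlier results of these data known. All 9 were found among the 34957 genes of both deposited tables and passed the filter on low values. They were measured by short-read RNA-seq in A549 cells, a human lung adenocarcinoma line, harvested 48 h after transfection of a negative control siRNA (si-ctrl, replicates 1 and 2), a PLANE siRNA (si-PLANE.1, replicates 1 and 2) or another PLANE siRNA (si-PLANE.2, labelled as replicates 3 and 4). PLANE is a long noncoding RNA of cancer cells, and the comparison asks which transcripts change when it is targeted. PLANE itself was not analysed here. All groups are transient transfections of 1 cell line with no other agent or allele, and nothing in the labels says whether the libraries of a group came from separate cultures, so that p-values measure the spread between these libraries only.

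DNA replication needs the 4 deoxynucleotides in balanced amounts. Ribonucleotide reductase, made of a large subunit (RRM1) and a small subunit (RRM2), reduces ribonucleotides to deoxyribonucleotides, thymidylate synthase (TYMS) and thymidine kinase (TK1) make thymidylate by the de novo and the salvage route, and dUTPase (DUT) removes dUTP while providing the substrate of TYMS. At the fork, replication factor C (of which RFC4 is a subunit) loads the sliding clamp PCNA, the flap endonuclease FEN1 trims Okazaki fragments, and uracil-DNA glycosylase (UNG) removes uracil that has entered DNA. Most of these genes are known to be transcribed mainly in late G1 and S phase, under E2F factors.

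The libraries of the si-PLANE.2 group stood apart in their make-up. They held 20778431 and 18281765 expected counts, against 13643800 and 14267231 in si-ctrl and 11093137 and 10572151 in si-PLANE.1. For 15 histone genes with mRNAs that are not polyadenylated, the median of FPKM (fragments per length of transcript and per size of the library) was 149 and 181 in si-ctrl, 75.1 and 124 in si-PLANE.1, and 0.53 and 0.98 in si-PLANE.2. Poly(A) isolation and rRNA removal are both named in the methods, with no word on which was used for which library, and for si-PLANE.2 the siRNA and the preparation of the libraries therefore cannot be told apart in what follows. All 10 A549 markers were present at 173 FPKM or more in every library, and the deleted genes CDKN2A and CDKN2B were at 0.44 FPKM or less. Of 7 markers of leukocytes, endothelium, fibroblasts and hepatocytes found, COL1A1 was the highest at 3.29 to 13.1 FPKM, CD3E was at 0, and their summed level was 8.36 and 9.53 FPKM in si-ctrl, 15.0 and 11.8 in si-PLANE.1, and 3.99 and 4.32 in si-PLANE.2.

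For orientation, upstream sequences of the members were read from RefSeq (250 bases before each of 16 annotated starts) and placed on GRCh37 by exact match, which succeeded for all 16. The E2F words TTTCCCGC, TTTCGCGC, TTTGCCGC and TTTGGCGC, searched on both strands, were present in 4 of the 16 windows, against 979 of 35116 windows of all genes (2.79%). These were the start of DUT-202 with 2 matches (42 and 27 bases before the start), and those of PCNA-202 (59 bases), TYMS-203 (39 bases) and UNG-202 (63 bases) with 1 each. CCAAT, on either strand, was in 7 of 16 windows against 32.0% of all, and the GC box GGGCGG in 12 of 16 against 42.6% of all. Matches of different motifs may share bases, and a match is only a description of the letters. The windows below are shown because UNG has a pair of starts, whose transcripts are described separately further on, and because TYMS carries a match close to its main start. They are written 5′ to 3′ with the E2F words in capitals, and the UNG-202 window, which lies in the first intron of UNG-201, was cut to the 196 bases before the first exon of UNG-202, which starts at 109535923 in GENCODE. The distances above are counted from the RefSeq starts, which for UNG-202 is 109535977, so that its match lies nearer to the GENCODE start. The UNG-201 and TYMS windows end at the base before the gene.
UNG-201, chr12:109535152-109535401, plus strand: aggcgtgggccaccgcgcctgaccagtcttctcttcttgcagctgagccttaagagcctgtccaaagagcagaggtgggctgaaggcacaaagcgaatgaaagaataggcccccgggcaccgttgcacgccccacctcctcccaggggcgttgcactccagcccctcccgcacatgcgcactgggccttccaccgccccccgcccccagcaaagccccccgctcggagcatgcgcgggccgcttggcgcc
UNG-202, chr12:109535727-109535922, plus strand: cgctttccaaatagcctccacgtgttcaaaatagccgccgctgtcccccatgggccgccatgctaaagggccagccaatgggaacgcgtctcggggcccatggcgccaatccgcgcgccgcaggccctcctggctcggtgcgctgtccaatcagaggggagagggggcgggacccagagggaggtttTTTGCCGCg
TYMS-203, chr18:657403-657652, plus strand: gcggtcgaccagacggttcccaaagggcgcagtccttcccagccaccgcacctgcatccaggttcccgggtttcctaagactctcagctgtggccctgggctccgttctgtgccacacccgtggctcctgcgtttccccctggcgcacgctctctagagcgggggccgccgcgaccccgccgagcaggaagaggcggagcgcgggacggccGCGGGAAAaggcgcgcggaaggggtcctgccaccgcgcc

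Gene totals per library are sums of the FPKM values of all transcripts of a gene. In si-ctrl the order of the levels was PCNA (mean 253 FPKM), TYMS (69.7), RRM2 (62.5), RRM1 (37.9), TK1 (29.5), RFC4 (28.8), DUT (26.3), UNG (16.8) and FEN1 (15.0). TK1, RFC4 and DUT overlapped their neighbours in this order, as did UNG and FEN1, and the others did not. In si-PLANE.1 the order was PCNA, TYMS, RRM2, RRM1, RFC4, DUT, TK1, UNG and FEN1, with overlap only among RFC4, DUT and TK1. In si-PLANE.2 the order was PCNA, RRM2, TK1, TYMS, DUT, FEN1, RRM1, UNG and RFC4, and no neighbours overlapped. Replicates of a group differed by at most 1.45-fold in si-ctrl (PCNA), 1.76-fold in si-PLANE.1 (FEN1) and 1.23-fold in si-PLANE.2 (DUT). In si-ctrl, 8 of the 9 genes were higher in replicate 1 than in replicate 2. The share of all genes that were higher in replicate 1 was not counted, so that this number is not a result about the 9 genes.

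**Figure D1:**
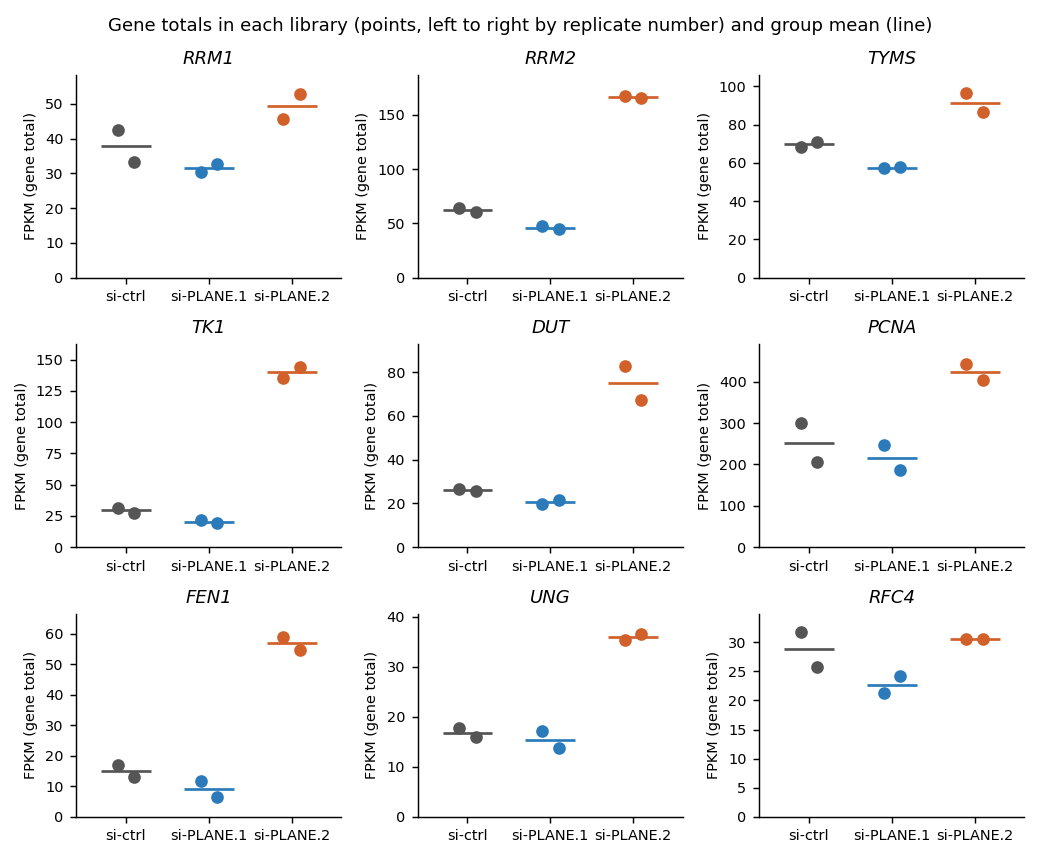
Gene totals (FPKM, vertical axis starting at 0) of the 9 genes in each of the 6 libraries, as points, with the group mean as a line. The si-PLANE.2 libraries lie above all others for 8 genes, and for RFC4 they lie within the range of si-ctrl.

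The si-PLANE.1 libraries were compared with si-ctrl first. All 9 genes had a log2 fold change below 0, from -0.14 (UNG) to -0.83 (FEN1), with a median of -0.39 against 0.0016 over all 14535 genes tested, of which 49.7% were below 0. None of the 9 passed edgeR's quasi-likelihood test at an adjusted p of 0.05, a call made for 0.0344% of all genes (5 genes), and DESeq2 also called 0 of the 9. At an unadjusted p under 0.05, 5 of the 9 were lower (RRM2, TK1, DUT, FEN1 and RFC4), against 5.7% of all genes, and none was higher, against 4.6%. In FPKM, 7 of the 9 genes had both si-PLANE.1 libraries below both si-ctrl libraries, against 14.2% of all genes, the exceptions being PCNA and UNG. Within each pair of equal replicate number all 9 gene totals were lower in si-PLANE.1, against 39.2% of genes in the pair numbered 1, 43.1% in the pair numbered 2, and 21.9% in both. Scaled to library size in counts, UNG was the exception, being higher by 0.071 on the log2 scale in the pair numbered 2. Genes outside the pathway were also below 0 in si-PLANE.1. Of 15 reference genes such as ACTB and GAPDH, 13 were below 0 (median log2 fold change -0.21), as were all 10 A549 markers (median -0.44), and none of either list was called, with 1 and 4 lower at an unadjusted p under 0.05. Their part in the values of the 9 genes was not tested.

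The si-PLANE.2 libraries were then compared with the same si-ctrl libraries. In that comparison 8 of the 9 genes rose, against 31.8% of all 14168 genes called higher and 64.0% called in either direction. The median log2 fold change of the 9 genes was 1.01, against -0.03 over all genes. TK1, DUT and FEN1 were above 2 on the log2 scale, as were 3.85% of all genes. In FPKM, the same 8 had both si-PLANE.2 libraries above both si-ctrl libraries, against 30.9% of all genes. RFC4 did not pass the test. With si-PLANE.2 replicate 3 or 4 left out, the median of the 9 genes was 1.05 and 1.02. The number called depended on the scaling. It was 7 with limma on log2(FPKM + 1), without RRM1, and 5 on log2(TPM + 1), without RRM1, TYMS and PCNA.

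The siRNAs were also compared with each other, in a fit of all 6 libraries. All 9 genes were higher in si-PLANE.2 than in si-PLANE.1, against 31.0% of all 14440 genes, by 0.60 (RFC4) to 2.91 (FEN1) on the log2 scale, with a median of 1.34 against -0.06 over all genes, and the FPKM of the libraries did not overlap for any of the 9, against 28.2% of all genes. With limma on log2(TPM + 1), 7 of the 9 were called, without RRM1 (0.40, adjusted p = 0.0948) and RFC4 (0.19, adjusted p = 0.355). Other genes moved with si-PLANE.2 as well. Of the 15 reference genes, 11 were called higher and 1 lower against si-ctrl, with a median log2 fold change of 0.77, and the 10 A549 markers were all called higher with a median of 0.76. These counts were 9 and 1 of the reference genes and 8 of the markers with limma on log2(FPKM + 1), and 5 and 1 of the reference genes (median 0.36) and 6 of the markers (median 0.63) on log2(TPM + 1). The part of this in the results for the 9 genes was not tested. In bulk RNA, more cells in S phase and more RNA per cell cannot be told apart.

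**Figure D2:**
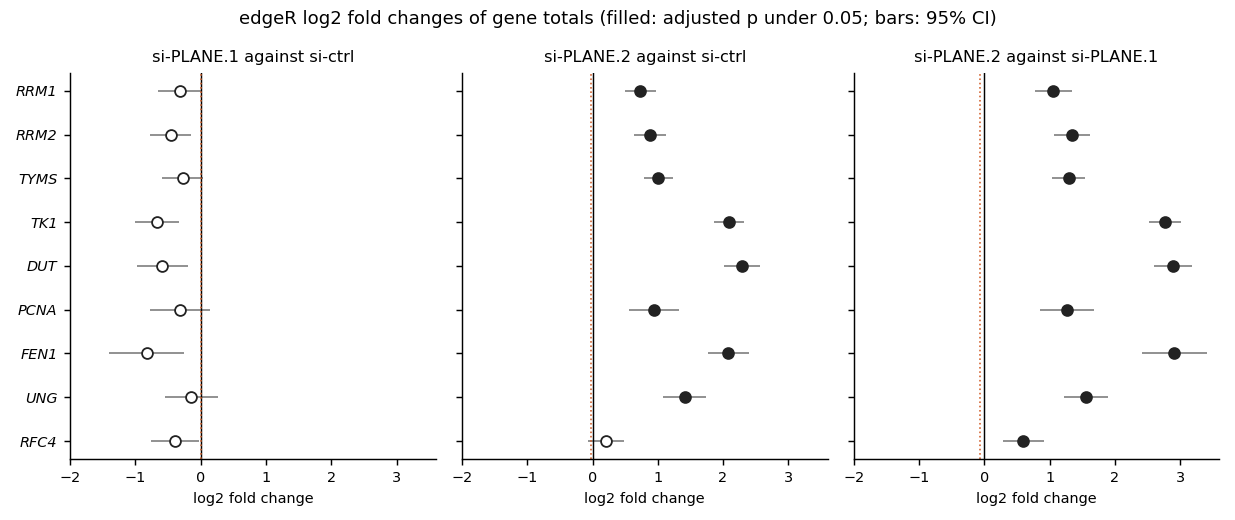
Log2 fold changes of the 9 genes (horizontal axis) from edgeR with 95% confidence intervals, in 3 comparisons, each panel naming the group in the numerator first. Filled points passed an adjusted p of 0.05, and the dotted line is the median of all genes tested. All points of si-PLANE.1 are open and below 0, and all points of si-PLANE.2 against si-PLANE.1 are filled and above 0.

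Ribonucleotide reductase was followed through its subunits. RRM1, the large subunit, which carries the catalytic site and the sites that sense nucleotides, lies at chr11:4115937-4160162 (GRCh37, plus strand). Its gene total was 42.4 and 33.4 FPKM in si-ctrl, 30.4 and 32.7 in si-PLANE.1, and 45.7 and 53.0 in si-PLANE.2. The groups did not overlap, although si-ctrl replicate 2 was less than 1 FPKM above the nearest si-PLANE.1 library. Its log2 fold change was -0.32 ± 0.14 (SE) in si-PLANE.1, with a 95% confidence interval from -0.65 to 0.02 and an adjusted p of 0.509, and 0.73 ± 0.10 in si-PLANE.2 (adjusted p = 0.000589). The call in si-PLANE.2 was lost with limma on log2(FPKM + 1), where the difference was 0.38 (adjusted p = 0.0838), and on log2(TPM + 1), where it was 0.22 (adjusted p = 0.353).

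RRM2, the small subunit, which carries the tyrosyl radical and is the limiting subunit in cycling cells, lies at chr2:10260825-10351851 (plus strand). It stood at 64.1 and 60.8 FPKM in si-ctrl, 47.2 and 45.1 in si-PLANE.1, and 167 and 166 in si-PLANE.2. The groups did not overlap, and the replicates of each lay close together. On the count scale its log2 fold change was -0.46 ± 0.13 in si-PLANE.1 (adjusted p = 0.365) and 0.88 ± 0.10 in si-PLANE.2 (adjusted p = 0.000251). The ratio of RRM2 to RRM1 gene totals in FPKM was 1.51 and 1.82 in si-ctrl, 1.55 and 1.38 in si-PLANE.1, and 3.66 and 3.13 in si-PLANE.2. These totals include short transcripts of RRM2, described below. In counts, RRM2 went from 1698 and 1526 in si-ctrl to 4023 and 3335 in si-PLANE.2. RRM1 went from 1244 and 1110 to 2570 and 2272. The coding mRNA RRM1-201 went from 31.0 and 26.2 FPKM to 42.7 and 42.5. RRM2-201 went from 36.1 and 31.4 FPKM to 43.6 and 40.8. The ratio therefore does not describe the coding mRNAs.

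RRM2 differed in the make-up of its transcripts. RRM2-201, which encodes the 389-residue protein, measured 36.1 and 31.4 FPKM in si-ctrl, 22.9 and 28.3 in si-PLANE.1, and 43.6 and 40.8 in si-PLANE.2, a rise of 0.61 ± 0.12 on the log2 scale against si-ctrl (adjusted p = 0.0356, over 56791 transcripts). RRM2-209, annotated as a retained intron of 644 bases, was listed at 0 in the 4 other libraries and at 71.4 and 63.4 FPKM in si-PLANE.2. The 7 retained-intron transcripts of RRM2 together made up 31.5% to 40.8% of its FPKM total in si-ctrl and si-PLANE.1, and 71.0% and 72.0% in si-PLANE.2. Short transcripts weigh more in FPKM than in counts, and RRM2-209 carried 15.2% and 14.2% of the RRM2 counts in si-PLANE.2, against 68.4% and 67.9% for RRM2-201. RRM1-201 (792 codons) held 94.8% to 98.2% of the RRM1 counts in every library. RRM2-207, another retained intron, measured 19.1 and 15.5 FPKM in si-ctrl, 17.3 and 9.47 in si-PLANE.1, and 32.0 and 26.7 in si-PLANE.2, and did not pass the test against si-ctrl (adjusted p = 0.0632). RRM1-203, a retained intron of RRM1, lay between 1.38 and 10.9 FPKM, with the lowest value in si-PLANE.2 replicate 3 and 8.78 in replicate 4.

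Thymidylate is supplied by 3 of the genes. TYMS, which methylates dUMP to dTMP with a folate cofactor, lies at chr18:657653-673578 (plus strand). Its gene total was 68.5 and 71.0 FPKM in si-ctrl, 57.3 and 57.7 in si-PLANE.1, and 96.4 and 86.7 in si-PLANE.2, without overlap between groups. Its log2 fold change was -0.28 ± 0.14 in si-PLANE.1 (adjusted p = 0.543) and 1.01 ± 0.09 in si-PLANE.2 (adjusted p = 8.27e-05), a call that was lost with limma on log2(TPM + 1) (0.23, adjusted p = 0.153). The gene shares 3261 bases with ENOSF1 on the opposite strand, which was at 22.7 to 30.5 FPKM, and strand was not stated for the counting.

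The TYMS total was made mainly of a pair of mRNAs. TYMS-203, the full-length mRNA of 313 codons, measured 35.5 and 34.9 FPKM in si-ctrl, 28.6 and 34.5 in si-PLANE.1, and 67.0 and 81.2 in si-PLANE.2, a rise of 1.36 ± 0.13 on the log2 scale against si-ctrl (adjusted p = 0.0101). TYMS-202, a shorter form of 230 codons, measured 20.8 and 35.6 FPKM in si-ctrl, 19.8 and 12.7 in si-PLANE.1, and 1.36 and 0 in si-PLANE.2, which did not pass the test (adjusted p = 0.0755). All si-PLANE.2 values of TYMS-202 lay below all others. TYMS-205, with no coding sequence defined, had replicates far apart, at 10.5 and 0.01 FPKM in si-ctrl and 24.7 and 4.11 in si-PLANE.2 (adjusted p = 0.536).

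TK1, which phosphorylates thymidine taken up from outside and is degraded after mitosis, lies at chr17:76170172-76183314 (minus strand). It stood at 31.5 and 27.5 FPKM in si-ctrl, 21.5 and 19.6 in si-PLANE.1, and 136 and 144 in si-PLANE.2. Both si-PLANE.1 libraries were below both si-ctrl libraries, by -0.67 ± 0.14 on the log2 scale (adjusted p = 0.274), and si-PLANE.2 was 4.26-fold above si-ctrl (log2 fold change 2.09 ± 0.10, adjusted p = 8.29e-06). The ratio of TK1 to TYMS gene totals in FPKM was 0.46 and 0.39 in si-ctrl, 0.38 and 0.34 in si-PLANE.1, and 1.41 and 1.66 in si-PLANE.2.

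TK1-201, which encodes the 234-residue enzyme, held 84.5% to 99.7% of the TK1 counts in every library and rose from 29.8 and 27.3 FPKM in si-ctrl to 90.8 and 91.7 in si-PLANE.2 (adjusted p = 0.00629). TK1-205, a form of 180 codons, was listed at 0 in si-ctrl, at 0.83 and 1.59 FPKM in si-PLANE.1, and at 40.5 and 49.3 FPKM in si-PLANE.2, where it held 11.2% and 13.3% of the counts.

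DUT, which hydrolyses dUTP to dUMP, lies at chr15:48623208-48635570 (plus strand). Its gene total was 26.7 and 25.8 FPKM in si-ctrl, 19.9 and 21.6 in si-PLANE.1, and 82.8 and 67.5 in si-PLANE.2. The groups did not overlap. By counts DUT had the largest rise of the 9 genes against si-ctrl, 4.90-fold (log2 fold change 2.29 ± 0.12, adjusted p = 1.06e-05), and was at -0.59 ± 0.17 in si-PLANE.1 (adjusted p = 0.365). On log2(FPKM + 1) the order was another, with TK1 at 2.21, FEN1 at 1.87 and DUT at 1.48.

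DUT uses alternative first exons for a nuclear and a mitochondrial enzyme. DUT-202, the nuclear form of 164 codons, measured 4.52 and 4.38 FPKM in si-ctrl, 2.47 and 2.76 in si-PLANE.1, and 22.4 and 20.5 in si-PLANE.2, a rise of 2.55 ± 0.17 on the log2 scale against si-ctrl (adjusted p = 0.00684). DUT-201, the mitochondrial form of 252 codons, measured 1.48 and 0 FPKM in si-ctrl, 0.89 and 0 in si-PLANE.1, and 11.4 and 11.8 in si-PLANE.2, which did not pass the test (adjusted p = 0.116). DUT-205, a form of 141 codons, went from 0.95 and 0 FPKM in si-ctrl to 25.02 and 22.0 in si-PLANE.2 and passed it (adjusted p = 0.0401). It passed the filter on low values only through si-PLANE.2. DUT-207 went from the largest share of the DUT total in si-ctrl, 45.8% and 66.7% of FPKM, to 14.4% and 3.99% in si-PLANE.2, with levels of 12.2 and 17.2 FPKM in si-ctrl and 11.9 and 2.69 in si-PLANE.2. Both si-PLANE.2 libraries were below both si-ctrl libraries, but DUT-207 did not pass the test (adjusted p = 0.578). Neither did DUT-204, at 4.99 and 0 FPKM in si-ctrl and 8.26 and 8.18 in si-PLANE.2 (adjusted p = 0.402), nor DUT-206, a target of nonsense-mediated decay at 0.78 to 3.32 FPKM in all libraries (adjusted p = 0.711).

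**Figure D3:**
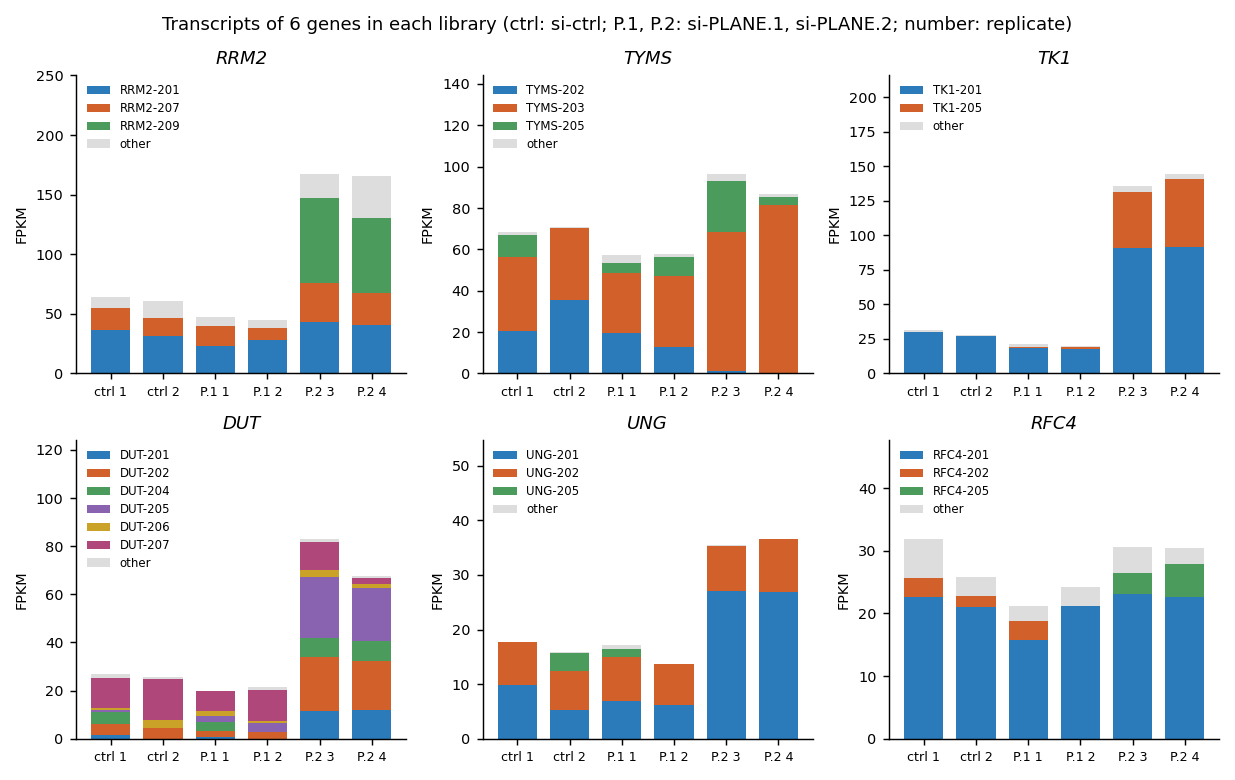
FPKM (vertical axes, starting at 0) of the transcripts of RRM2, TYMS, TK1, DUT, UNG and RFC4 in each library, stacked to the gene total, with transcripts under 10% of the total in every library in grey. RRM2-209 appears only in the si-PLANE.2 bars, TYMS-202 is at 1.36 FPKM or less there, and UNG-201 is at 27.0 and 26.8 FPKM there against 9.76 or less in the other bars.

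The fork is represented by 3 genes. PCNA, the ring that tethers DNA polymerases to the template, lies at chr20:5095599-5107272 (minus strand). It stood at 299 and 206 FPKM in si-ctrl, 247 and 186 in si-PLANE.1, and 442 and 404 in si-PLANE.2. Libraries of si-ctrl and si-PLANE.1 overlapped, with the replicate numbered 1 the higher in each. Its log2 fold change was -0.31 ± 0.20 in si-PLANE.1 (adjusted p = 0.622) and 0.95 ± 0.16 in si-PLANE.2 (adjusted p = 0.0017), where limma on log2(TPM + 1) gave 0.60 (adjusted p = 0.052). PCNA-201, of 261 codons, made up 90.3% to 97.0% of the FPKM total in every library.

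RFC4, a subunit of the clamp loader, lies at chr3:186507669-186524847 (minus strand) and overlaps the end of EIF4A2 by 18 bases on the opposite strand. Its gene total was 31.8 and 25.8 FPKM in si-ctrl, 21.2 and 24.2 in si-PLANE.1, and 30.6 and 30.5 in si-PLANE.2. The si-PLANE.2 libraries lay between those of si-ctrl, with a log2 fold change of 0.20 ± 0.12, a 95% confidence interval from -0.07 to 0.48 and an adjusted p of 0.164, and with limma on log2(TPM + 1) the value was -0.064. The change in si-PLANE.1 was -0.39 ± 0.16 (adjusted p = 0.464). RFC4-201, its main transcript of 363 codons, went from 22.7 and 21.1 FPKM in si-ctrl to 23.1 and 22.7 in si-PLANE.2. RFC4-202, which encodes the same number of codons, measured 2.9 and 1.79 FPKM in si-ctrl, and 3.13 and 0 in si-PLANE.1. It was at 0 in both si-PLANE.2 libraries, the only member transcript called lower by edgeR (adjusted p = 0.0253). RFC4-205, of 214 codons, was listed at 0 in the 4 other libraries and at 3.37 and 5.15 FPKM in si-PLANE.2. In this comparison RFC4-202 passed the filter on low values only through si-ctrl, and RFC4-205 only through si-PLANE.2.

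FEN1, the nuclease that removes the displaced flaps of Okazaki fragments, lies at chr11:61560383-61564710 (plus strand), with TMEM258 starting 109 bases away on the opposite strand. It stood at 17.0 and 13.0 FPKM in si-ctrl, 11.6 and 6.62 in si-PLANE.1, and 59.1 and 54.9 in si-PLANE.2. The groups did not overlap, and FEN1 had the lowest fold change of the 9 genes in si-PLANE.1, -0.83 ± 0.25 on the log2 scale (adjusted p = 0.368), and a rise of 4.23-fold in si-PLANE.2 (log2 fold change 2.08 ± 0.14, adjusted p = 2.17e-05). FEN1-201, of 380 codons, held 96.0% or more of the FPKM total in every library. TMEM258 went from 92.5 and 105 FPKM in si-ctrl to 142 and 130 in si-PLANE.2.

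UNG, which excises uracil from DNA, lies at chr12:109535402-109564530 (plus strand). Its gene total was 17.7 and 15.9 FPKM in si-ctrl, 17.1 and 13.7 in si-PLANE.1, and 35.4 and 36.5 in si-PLANE.2. Libraries of si-ctrl and si-PLANE.1 overlapped. Its log2 fold change was -0.14 ± 0.17 in si-PLANE.1, with a 95% confidence interval from -0.55 to 0.26 (adjusted p = 0.798), and 1.41 ± 0.14 in si-PLANE.2 (adjusted p = 0.000113).

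UNG also makes a nuclear and a mitochondrial enzyme from separate starts, those whose upstream windows are printed above. UNG-201, the nuclear form of 313 codons, measured 9.76 and 5.18 FPKM in si-ctrl, 6.88 and 6.27 in si-PLANE.1, and 27.0 and 26.8 in si-PLANE.2. UNG-202, the mitochondrial form of 304 codons, measured 7.91 and 7.29 FPKM in si-ctrl, 8.09 and 7.47 in si-PLANE.1, and 8.31 and 9.71 in si-PLANE.2. Against si-ctrl, UNG-201 rose in si-PLANE.2 by 2.14 ± 0.34 on the log2 scale (adjusted p = 0.0221), while UNG-202 was at 0.53 ± 0.20 and did not pass the test (adjusted p = 0.12). UNG-202 held 44.8% and 45.9% of the FPKM total in si-ctrl and 23.5% and 26.6% in si-PLANE.2. The difference between these transcripts was not tested. UNG-205, a retained intron, was at 3.22 FPKM in si-ctrl replicate 2 and 1.54 in si-PLANE.1 replicate 1, and was listed at 0 in the other libraries.

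Of all 74 transcripts of the 9 genes, 32 were tested in si-PLANE.1. None of them was called by edgeR or by DESeq2, and edgeR called none of all 57625 transcripts (0.0%). By edgeR 4 were at an unadjusted p under 0.05, against 4.43% of all transcripts in either direction. TK1-201, RRM2-201 and DUT-202 were lower and TK1-205 was higher. TK1-205 passed the filter on low values there only through si-PLANE.1, so that its p-value adds nothing to its listed values. Of 37 tested in si-PLANE.2, 12 were called higher, against 12.9% of all transcripts, and 1 lower, against 12.7%. With either si-PLANE.2 library left out, none of them was called. Of 35 tested between the siRNAs, 13 were called higher in si-PLANE.2, against 12.7% of all transcripts. None was called lower by edgeR, against 15.9%, while 18 were at an unadjusted p under 0.05 in either direction, against 43.0%. Against si-ctrl, RRM2-209, TK1-205, DUT-205 and RFC4-205 passed the filter on low values only through si-PLANE.2, where they are high. RFC4-202 passed it only through si-ctrl. Of those called between the siRNAs, RRM2-209, TK1-205 and RFC4-205 passed it only through si-PLANE.2. The calls of these transcripts add nothing to their listed values.

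The other genes of the pathway were described from 4 lists with 102 genes, of which 101 were tested. In si-PLANE.1, 89 of the 101 genes were below 0, against 49.7% of all genes, none was called by edgeR, 36 were lower and 1 higher at an unadjusted p under 0.05, against 5.7% and 4.6%, and DESeq2 called 5. In si-PLANE.2 against si-ctrl, 56 were higher and 19 lower, against 31.8% and 32.2% of all genes. Between the siRNAs, 63 were higher in si-PLANE.2 and 8 lower, against 31.0% and 33.4%. These splits depended on the scaling. With limma on log2(TPM + 1), 24 were higher and 29 lower in si-PLANE.2 against si-ctrl, with 28.6% of the called genes of the whole table higher in place of 49.7%, and 33 were higher and 27 lower between the siRNAs. On log2(FPKM + 1) these counts were 36 and 26, and 46 and 17.

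The nucleotide supply list held 35 genes. Its median log2 fold change was -0.26 in si-PLANE.1 and 0.43 in si-PLANE.2, where 19 genes rose and 6 fell, against 31.8% and 32.2% of all genes. DTYMK, which phosphorylates the product of TYMS and TK1, measured 19.8 and 20.7 FPKM in si-ctrl, 19.6 and 18.2 in si-PLANE.1, and 67.2 and 65.3 in si-PLANE.2 (log2 fold change 2.03 ± 0.10 against si-ctrl, adjusted p = 1.08e-05). NME2, a nucleoside diphosphate kinase, rose by 1.64 ± 0.10 and DCTD, which deaminates dCMP to dUMP, by 1.52 ± 0.13. SAMHD1 had the lowest value, -1.36, but was not called by edgeR (adjusted p = 0.0634). Among the genes called lower, CMPK1, a UMP/CMP kinase, fell most (-0.58 ± 0.12). Next were PRPS2, which makes phosphoribosyl pyrophosphate (-0.56 ± 0.11), and GMPS, the last enzyme of GMP synthesis (-0.51 ± 0.10). PRPS2 is uncertain, since its FPKM total was higher in si-PLANE.2 (49.6 and 49.3) than in si-ctrl (39.1 and 42.6). The smallest p-values in si-PLANE.1 were those of NME1 (-0.53 ± 0.12, adjusted p = 0.274) and SHMT1, a folate enzyme (-0.60 ± 0.14, adjusted p = 0.282). Between the siRNAs, DTYMK, NME2 and UMPS, the last enzyme of UMP synthesis (1.64 ± 0.13), were the highest called, and DGUOK, the mitochondrial deoxyguanosine kinase (-0.53 ± 0.11), CTPS2, a CTP synthase (-0.47 ± 0.12), and RRM2B, the p53-induced small subunit of ribonucleotide reductase (-0.30 ± 0.11), the lowest. RRM2B was near the threshold (adjusted p = 0.0472 by edgeR), and 33.4% of all genes were called lower in this comparison. Its direction was opposite to that of RRM2, from 14.6 and 17.1 FPKM (si-PLANE.1) to 12.4 and 12.6 (si-PLANE.2). The difference between RRM2B and RRM2 was not tested.

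The replication fork list held 39 genes, with a median of -0.35 in si-PLANE.1 and 0.66 in si-PLANE.2. In the latter 25 rose and 7 fell, against 31.8% and 32.2% of all genes. Of the 5 clamp loader genes, RFC2 rose by 1.65 ± 0.18 against si-ctrl, RFC5 by 0.66 (adjusted p = 0.0014) and RFC3 by 0.36 (adjusted p = 0.0269), RFC4 was at 0.20, and RFC1, the large subunit, fell by 0.60 (adjusted p = 0.00309). RFC3, which the rule did not name, was added after its values were seen, and differences between these genes were not tested. Against si-PLANE.1, RFC1 was at -0.49 ± 0.12 (adjusted p = 0.00821). Its FPKM total fell further than its counts. It was 41.1 and 46.3 in si-ctrl, 50.1 and 51.6 in si-PLANE.1, and 12.4 and 9.78 in si-PLANE.2. POLE4, a small subunit of DNA polymerase epsilon, went from 9.91 and 6.97 FPKM in si-ctrl to 33.0 and 32.1 in si-PLANE.2 (2.58 ± 0.16, adjusted p = 1.87e-05). CDC45, part of the replicative helicase, rose by 1.46 ± 0.15 in counts. Its FPKM totals were 18.3 and 9.96 in si-ctrl, and 21.2 and 19.15 in si-PLANE.2. ATAD5, which unloads PCNA, fell from 7.5 and 7.38 FPKM to 1.46 and 1.52 (-1.79 ± 0.12, adjusted p = 2.75e-05), and TOP2A (-0.73 ± 0.10) and POLA1, the catalytic subunit of DNA polymerase alpha (-0.73 ± 0.11), also fell. DSCC1, of an alternative clamp loader, was 2.28 ± 0.22 higher in si-PLANE.2 than in si-PLANE.1. In si-PLANE.1 the smallest p-values were those of RFC5 (-0.66 ± 0.15) and TIMELESS, of the fork protection complex (-0.60 ± 0.14), each at an adjusted p of 0.287.

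The list of uracil and base excision repair held 14 genes, with medians of -0.17 in si-PLANE.1 and 0.33 in si-PLANE.2. In the latter 6 rose and 2 fell, against 31.8% and 32.2% of all genes. NTHL1, a glycosylase of oxidised pyrimidines, rose by 1.56 ± 0.16 and APTX, an enzyme that processes DNA ends, by 0.73 ± 0.12, while the FPKM totals of APTX overlapped between these groups. LIG3, a DNA ligase, fell by 1.18 on the log2 scale (adjusted p = 5.17e-05) and MBD4, a glycosylase of mismatched uracil and thymine, by 0.51 (adjusted p = 0.00431). MBD4 was also among the smallest p-values of this list in si-PLANE.1, at -0.63 ± 0.15 (adjusted p = 0.287), with PARP1 at -0.29 ± 0.13 (adjusted p = 0.488). APEX1, the abasic site endonuclease, was 0.78 ± 0.15 higher in si-PLANE.2 than in si-PLANE.1.

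Of 14 partners of PCNA, 13 were tested. Their median was -0.58 in si-PLANE.1, the lowest of the 4 pathway lists, with 9 of 13 lower at an unadjusted p under 0.05, against 5.7% of all genes, and none called by edgeR. DTL, which targets PCNA-bound proteins for degradation, went from 28.3 and 24.2 FPKM in si-ctrl to 16.9 and 9.75 in si-PLANE.1 (-0.86 ± 0.15, adjusted p = 0.242), and DNMT1, the maintenance DNA methyltransferase, was at -0.56 ± 0.11 (adjusted p = 0.274), with FPKM totals that overlapped. In si-PLANE.2, 6 rose and 4 fell against si-ctrl, against 31.8% and 32.2% of all genes, with a median of 0.11. PCLAF, a PCNA-binding protein, rose from 53.8 and 73.8 FPKM to 118 and 105 (1.29 ± 0.15), and the histone chaperone subunits CHAF1A and CHAF1B rose by 0.86 ± 0.13 and 0.59 ± 0.13 in counts, CHAF1A with lower FPKM totals in si-PLANE.2 (22.0 and 19.9) than in si-ctrl (27.1 and 22.9). HLTF, a ubiquitin ligase of PCNA (-1.003 ± 0.094), the mismatch repair gene MSH3 (-0.80 ± 0.11) and the translesion polymerase POLH (-0.70 ± 0.14) fell. CDT1, a licensing factor, was 1.23 ± 0.15 higher in si-PLANE.2 than in si-PLANE.1.

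**Figure D4:**
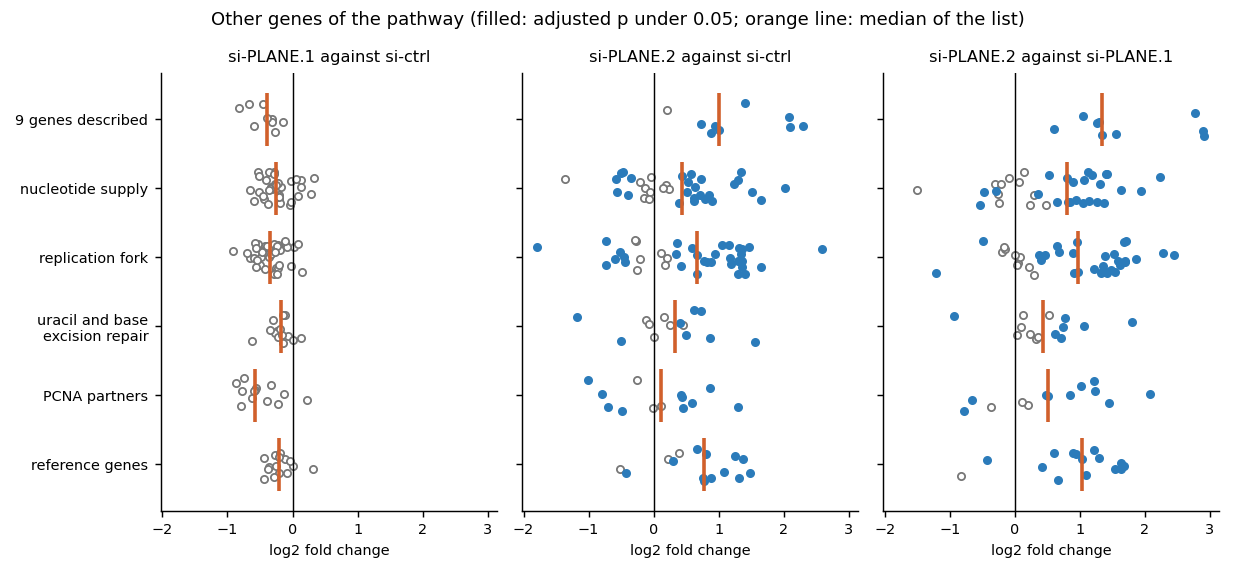
Log2 fold changes (horizontal axis) of the 9 genes, of the 4 pathway lists and of the 15 reference genes in the 3 comparisons, 1 point per gene, filled where the adjusted p was under 0.05, with the list median in orange. In si-PLANE.1 all points are open and most lie below 0, and in si-PLANE.2 each list holds filled points on both sides of 0 except that of the 9 genes.

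As a description of the pattern over the 6 libraries, the gene most like each of the 9 was found by Pearson's r of log2(FPKM + 1) among 14439 other genes. It was ILVBL for RRM2 (r = 0.9999), DCAF15 for DUT (r = 0.9998), SLC25A1 for UNG (r = 0.9998), ALKBH7 for TK1 (r = 0.9996), RPA2 for PCNA (r = 0.999), KHSRP for FEN1 (r = 0.999), UBE2C for TYMS (r = 0.997), TFIP11 for RRM1 (r = 0.995) and UBE2M for RFC4 (r = 0.988). The part of these values that comes from the contrast of the si-PLANE.2 libraries with the other libraries was not tested. High values were common, and 1363 genes reached 0.95 with UNG but 15 with RFC4. Among the 9 themselves, RRM2 and TK1 were the most alike (r = 0.998), and UNG and RFC4 the least (r = 0.623).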

How the data were processed

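Short-read RNA-seq of 6 libraries was analysed. The authors deposited 2 tables of 180253 transcripts with an expected count per transcript, not normalized, and an FPKM value, normalized by the authors for length and depth. The tool that estimated them is not given in the sources used here. The submitters' processing notes name Trimmomatic 0.30, HISAT2 2.0.1, HTSeq 0.6.1, DESeq and hg19, with no roles. Expected counts were rounded and summed per gene. Transcripts without a gene identifier, 3.03% to 3.62% of counts, were left out. Genes with a mean of at least 0.5 FPKM were tested with edgeR 4.0.16 (TMM, quasi-likelihood, two-sided) in R 4.3.3, with Benjamini-Hochberg adjusted p over all genes. Standard errors were the log2 fold change divided by the root of F. Alternatives used DESeq2 1.42.0 and limma 3.58.1 (pseudocounts of 1 and 0.1). Scripts were tested on simulated data. Transcript names and types are those of GENCODE 44 on GRCh37, promoters those of RefSeq (GRCh38.p14).

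Members and lists were chosen with earlier results of these data known. All members were named; from each list and comparison, up to 3 genes in each direction with the largest called change, or the 2 smallest p-values where none was called; for each member, its most abundant transcript, every transcript holding 10% of its total in any library, and the gene most like it. Of the genes so named, 1 is not reported here.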

Additional observations from a re-analysis of the deposited data

Results flagged for a closer look

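The effects of the siRNAs differed for all 9 genes in the direct comparison of si-PLANE.2 with si-PLANE.1, given here as log2 fold changes: RRM1 (1.06), RRM2 (1.34), TYMS (1.29), TK1 (2.77), DUT (2.89), PCNA (1.27), FEN1 (2.91), UNG (1.56) and RFC4 (0.60). The adjusted p of these, by edgeR over all genes, was between 7.64e-07 (TK1) and 0.00516 (RFC4), and 31.0% of all genes were called higher. Every library of si-PLANE.2 lay above every library of si-PLANE.1 in FPKM, as for 28.2% of all genes. With limma on log2(TPM + 1), RRM1 and RFC4 lost their calls.

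The same comparison differed for 30 of the pathway genes named in the report, while 64.4% of all 14440 genes were called in it in either direction. The named genes were chosen partly by their calls in this comparison, so that their number is not a result about the pathway. Of nucleotide supply, these were NME1 (1.18), SHMT1 (0.85), DTYMK (2.24), NME2 (1.94), DCTD (1.40), UMPS (1.64), DGUOK (-0.53), CTPS2 (-0.47) and RRM2B (-0.30). Of the replication fork, these were RFC5 (1.32), TIMELESS (1.48), POLE4 (2.44), RFC2 (1.87), CDC45 (1.68), ATAD5 (-1.21), DSCC1 (2.28) and RFC1 (-0.49). Of uracil and base excision repair, these were PARP1 (0.71), NTHL1 (1.79), APTX (0.74), LIG3 (-0.93) and APEX1 (0.78). Of the PCNA partners, these were DTL (0.85), DNMT1 (1.02), PCLAF (2.07), CHAF1A (1.45), CHAF1B (1.22), HLTF (-0.78), MSH3 (-0.66) and CDT1 (1.23). Histone mRNAs without a poly(A) tail were lower in si-PLANE.2 as well. The siRNA and the library preparation cannot be told apart in any of these differences. In FPKM, the libraries of si-PLANE.1 and si-PLANE.2 overlapped for APTX, DTL and DNMT1.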

How the results depend on the processing

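With the replicate number as a block, 4 of the 9 genes were called lower in si-PLANE.1 (RRM2 -0.46, TK1 -0.67, DUT -0.59 and FEN1 -0.85), as were 5.0% of all genes, and 35 pathway genes were called in either direction, as were 8.41% of all genes, against 5 by DESeq2 and none otherwise. Nothing in the labels says that the number marks a batch, and the differences between replicates correlated at 0.326 between si-ctrl and si-PLANE.1 over 14535 genes, which are not independent; the pairing therefore stays a hint from the data. Limma on log2(TPM + 1) gave a median of the 9 genes of -0.26 in si-PLANE.1 (0.14 over all genes), 5 called in si-PLANE.2, without RRM1 (0.22), TYMS (0.23) and PCNA (0.60), RFC4 at -0.064 (adjusted p = 0.774), and a median of 0.96 between the siRNAs (-0.54 over all genes), without RRM1 (0.40) and RFC4 (0.19). RRM1 also lost its call in si-PLANE.2 by limma on log2(FPKM + 1) and log2(FPKM + 0.1) (0.38 and 0.39). These scalings moved the median of all genes in si-PLANE.2 to -0.22 (FPKM) and -0.37 (TPM). When each gene was represented by its most abundant transcript, the median in si-PLANE.2 was 1.20, and DUT between the siRNAs was -0.15 (adjusted p = 0.867). With protein-coding transcripts only, chosen after seeing the data, the median between the siRNAs was 1.16. Leaving out each library gave medians from -0.54 (without si-ctrl replicate 2) to -0.29 in si-PLANE.1 and from 1.01 to 1.20 (without si-ctrl replicate 1) in si-PLANE.2, and 0 to 16 member transcripts called in si-PLANE.2. Without si-ctrl replicate 1, UNG in si-PLANE.1 was 0.071 (adjusted p = 0.936), against -0.32 without si-ctrl replicate 2 and -0.074 without si-PLANE.1 replicate 2, and RFC4 in si-PLANE.2 passed the test (0.28, adjusted p = 0.0429), against 0.11 without si-ctrl replicate 2. In si-PLANE.1, PCNA was -0.040 and -0.54 without si-ctrl replicates 1 and 2, and -0.49 and -0.15 without si-PLANE.1 replicates 1 and 2. FEN1 was -0.51 without si-PLANE.1 replicate 2 and -1.23 without replicate 1, where RRM1 was -0.18 and TYMS -0.16. Where not stated, the cause was not tested. By expected counts in place of FPKM, the share of the most abundant transcript moved for 7 of the 9 genes.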
